A study of Mus musculus with 16 samples.

Results

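The mitosis and kinetochore genes described here are a list of 53 genes that act when a cell divides, fixed by name and matched by gene symbol to the deposited count table. They are 53 of 55536 annotated genes, and all 53 passed the filter on low counts that left 16650 genes to test. Entry into mitosis is driven by the kinase Cdk1 with its A and B cyclins. Kinetochores are the protein assemblies that join the centromere of each chromosome to spindle microtubules. A checkpoint holds the anaphase-promoting complex (APC/C) back until every kinetochore is attached, after which securin and cyclin B are destroyed, separase opens the cohesin rings, and the cell is cut in 2. CD8+ T cells that meet antigen divide quickly for several days, so transcripts of these genes are abundant in such cells, and in a bulk sample a smaller share of dividing cells cannot be told apart from less of these transcripts in each dividing cell.

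All 16 libraries came from OT-I CD8+ T cells, which carry 1 transgenic T cell receptor for the SIINFEKL peptide of ovalbumin, on a C57BL/6J background. Per the study's methods the OT-I donors lacked Rag1 or Rag2. The cells were electroporated with Cas9 bound to a control (scrambled) guide, the Control gRNA group of 8 libraries, or to a guide against Tardbp, the Tardbp gRNA group of 8 libraries. TDP-43, the product of Tardbp, binds RNA and acts in splicing. The edited cells were transferred into C57BL/6J recipients, and all recipients in both groups received SIINFEKL with agonist antibodies to OX40 and 41BB, the costimulation that both groups share. CD8+ T cells were then sorted from lymph nodes and spleen, 4 days later by the labels and 3.5 days by the methods. The study's results section names a stimulation after purification, beside RNA-seq, and whether it applied to the sequenced cells is not clear. The labels give no age, and the share of edited cells in each population was not analysed here. The deposited sex letters were 3 M and 5 F in the Control gRNA group and 5 M and 3 F in the Tardbp gRNA group. Tardbp itself stood at 171.8 to 206.9 CPM (a gene's count over each 1000000 counts of the library, scaled by the trimmed mean of M values) in the Control gRNA libraries and 110.4 to 147.2 in the Tardbp gRNA libraries, without overlap (log2 fold change -0.51 ± 0.056 SE, edgeR adjusted p = 8.07e-07). Library totals ran from 56016533 to 94801105 estimated counts. The RNA concentration recorded before library preparation, given without a unit, was 34.9 to 197.1 in the Control gRNA and 10.1 to 24.0 in the Tardbp gRNA group and did not overlap (exact two-sided permutation test, adjusted p = 0.000622 over 4 library measures), so it cannot be told apart from the guide.

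Many genes of this set carry a short element in their promoters, the cell cycle homology region (CHR), which reads TTTGAA on either strand and is bound by the DREAM and MuvB complexes that time their expression to mitosis. A RefSeq promoter window (GRCm38.p6, 250 bases before to 50 bases after a RefSeq start) was at hand for 43 of the 53 members. It was the window nearest the start of the dominant transcript (defined below), without a limit on distance, so it need not hold that start. The windows of Mad2l1 and Plk4 ended before the annotated start of the gene, and those of Kif2c, Cdca8, Kif4, Cenpm and Pttg1 lay inside the gene. TTTGAA on either strand was found in the windows of 29 of the 43 (67.4%), against 12.2% of 10199 windows of genes with a transcript tested. The related letters TTTAAA were in 25.6% of the members' windows and 8.79% of all, the CCAAT box in 74.4% and 39.1%, and an E2F form (the letters TCCCGCC on either strand, otherwise the variant TTGGCGC or, likewise, its relative TTCGCGC) in 34.9% and 26.8%. The CCAAT box read on the other strand, ATTGG, can overlap the E2F form that begins with the same letters, so these counts are not independent. The 12 stretches that follow show the element in 8 members that were lower in the Tardbp gRNA libraries and, in the last 4, in members that were not, each read 5′ to 3′ on the strand of its gene with the element in capitals (TTCAAA where it lies on the other strand).
Cdk1, chr10:69352910-69352939, minus strand: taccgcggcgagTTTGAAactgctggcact
Cdc20, chr4:118437344-118437373, minus strand: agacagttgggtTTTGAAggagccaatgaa
Espl1, chr15:102296254-102296283, plus strand: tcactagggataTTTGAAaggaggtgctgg
Prc1, chr7:80294434-80294463, plus strand: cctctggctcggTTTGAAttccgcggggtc
Ncapg, chr5:45669883-45669912, plus strand: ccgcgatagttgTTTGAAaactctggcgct
Mki67, chr7:135716460-135716489, minus strand: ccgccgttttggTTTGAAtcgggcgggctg
Kif11, chr19:37376351-37376380, plus strand: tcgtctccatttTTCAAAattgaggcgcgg
Top2a, chr11:99024195-99024224, minus strand: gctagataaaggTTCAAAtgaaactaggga
Ube2c, chr2:164769888-164769917, plus strand: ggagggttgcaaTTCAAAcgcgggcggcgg
Ccnb2, chr9:70421704-70421733, minus strand: cagggactagaaTTTGAAaataagactgta
Cenpa, chr5:30666890-30666919, plus strand: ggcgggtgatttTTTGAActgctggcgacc
Spc25, chr2:69206172-69206201, minus strand: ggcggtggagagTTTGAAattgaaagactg
The element was thus in the windows of members of every outcome. The windows of Mad2l1, Melk, Nuf2, Nusap1 and Pttg1 held none of the letters searched.

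In the comparison of the guides, 45 of the 53 members were called lower in the Tardbp gRNA libraries, 2 were called higher and 6 were not called, at an edgeR adjusted p under 0.05 over all 16650 genes. Among all genes tested 46.7% were called, 23.3% lower and 23.5% higher. The median log2 fold change of the members was -0.49, beside 0.046 over all genes. In 35 members the highest Tardbp gRNA library was under the lowest Control gRNA library, which was the case for 10.3% of all genes, and in 1 member the groups stood apart the other way (6.61% of all genes). The largest falls were in Espl1, Bub1 and Melk, and the 2 members that rose were Pttg1 and Cenpa. In libraries numbered 4 to 8 alone 44 members were called lower and 2 higher, where 21.1% of all genes were lower and 19.7% higher. In numbers 1 to 3 alone 29 were called lower, neither Pttg1 nor Cenpa was called, and the median was -0.52, where 6.76% of all genes were lower and 3.3% higher. The 2 sets were run apart because numbers 1 to 3 lay above 4 to 8 on the second principal component, although the labels name no batch.

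**Figure D1:**
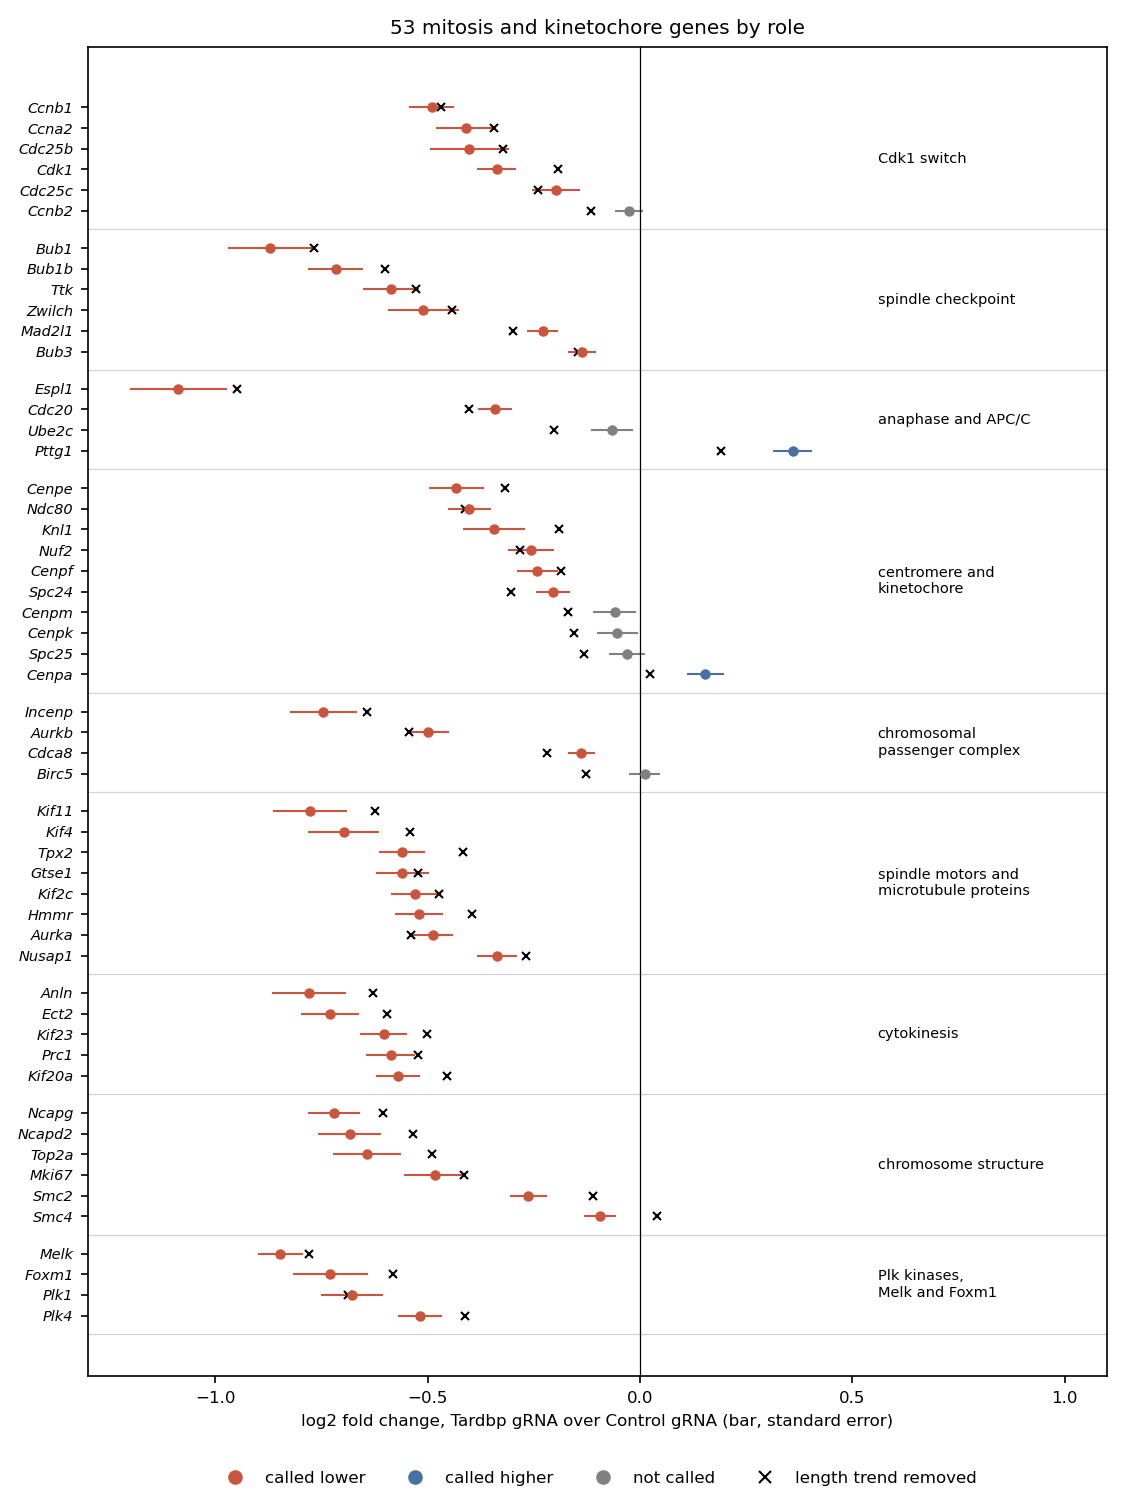
Log2 fold change of each of the 53 members (x axis, Tardbp gRNA over Control gRNA; bars, standard error), grouped by role on the y axis, with crosses for the fit after a length trend was removed from each library. In the fit of all libraries the members of the checkpoint, spindle motor, cytokinesis, chromosome structure and Plk groups lie left of 0, with the length trend removed Smc4 lies at 0.04, and the 8 members that were not called lower belong to 4 other groups.

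The Cdk1 switch comprises the kinase Cdk1, its cyclins Ccna2, Ccnb1 and Ccnb2, and the phosphatases Cdc25b and Cdc25c that activate it. Of these 6, 5 fell and 1 was not called, with a median log2 fold change of -0.37. Cdk1 read 284.6, 325.4 and 340.0 CPM at the lowest, the median and the highest Control gRNA library, and 228.3, 251.4 and 273.2 CPM in the Tardbp gRNA group. No Tardbp gRNA library reached the lowest Control gRNA library, and Cdk1 fell by 0.34 ± 0.046 on the log2 scale (edgeR adjusted p = 8.54e-06). Ccnb1, the cyclin B that moves to the nucleus as mitosis starts, changed most of the 6: it ran from 521.6 through a median of 578.9 to 665.9 CPM with the control guide and from 369.9 through 437.9 to 447.5 CPM with the Tardbp guide. These ranges did not meet either, and the log2 fold change was -0.49 ± 0.053 (edgeR adjusted p = 6.95e-07). Ccnb2, the Golgi-associated B cyclin, had the highest level per length of this group, at 326.3 ± 13.7 CPM per kilobase of its dominant transcript (SD, n = 8) in Control gRNA cells. Its CPM were 465.3, 497.3 and 525.4 in the Control gRNA libraries and 467.1, 489.4 and 524.9 in the Tardbp gRNA libraries, which covered the same range (log2 fold change -0.03 ± 0.033, edgeR adjusted p = 0.555). The log2 ratio of Ccnb2 to Ccnb1 counts ran from -0.43 to -0.10 in the Control gRNA libraries and from 0.12 to 0.38 in the Tardbp gRNA libraries, so the balance of the B cyclins separated the groups. Ccna2, Cdc25b and Cdc25c fell by 0.41, 0.40 and 0.20 on the log2 scale, each with overlapping groups. With plain library totals Cdc25c was at -0.13 and was not called (edgeR adjusted p = 0.0793).

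The spindle checkpoint members all fell, 6 of 6, with a median of -0.55. Bub1, the kinase that marks centromeric chromatin and recruits other checkpoint proteins, had 140.6, 164.1 and 185.1 CPM in the Control gRNA libraries and 57.8, 89.8 and 111.3 CPM in the Tardbp gRNA libraries. The groups stood well apart, at a log2 fold change of -0.87 ± 0.098 (edgeR adjusted p = 1.13e-06). Its relative Bub1b (BubR1), a part of the complex that inhibits the APC/C, fell by 0.72. Ttk (Mps1), the kinase at the top of the checkpoint, fell by 0.59, and Zwilch, a subunit that brings dynein to kinetochores, by 0.51. Mad2l1, which binds Cdc20, fell by 0.23. The smallest change belonged to Bub3, the carrier of Bub1 and BubR1, which was also the highest of the group per length. It ran from 434.9 to 505.7 CPM with a median of 469.1 in Control gRNA cells and from 414.7 to 443.1 with a median of 423.9 in Tardbp gRNA cells. These ranges overlapped and the fall was 0.14 ± 0.032 on the log2 scale (edgeR adjusted p = 0.00201), and with plain library totals in place of scaled ones Bub3 was no longer called.

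The 4 anaphase genes went separate ways. Espl1, which encodes separase, the protease that opens cohesin, showed the largest change of the 53. Its CPM were 115.6, 162.4 and 184.6 in the Control gRNA libraries and 53.9, 80.8 and 88.8 in the Tardbp gRNA libraries, a log2 fold change of -1.09 ± 0.114 without overlap (edgeR adjusted p = 5.53e-07). Pttg1, which encodes securin, the inhibitor that separase must shed, rose: its lowest, median and highest values were 71.5, 76.9 and 79.8 CPM with the control guide and 88.0, 96.7 and 107.7 CPM with the Tardbp guide. Here every Tardbp gRNA library lay above every Control gRNA library, with a log2 fold change of 0.36 ± 0.046 (edgeR adjusted p = 4.28e-06). The median log2 ratio of Pttg1 to Espl1 counts was -1.08 in the Control gRNA and 0.27 in the Tardbp gRNA group, with ranges of -1.32 to -0.59 and 0.0066 to 0.99. Cdc20, the activator of the APC/C in early mitosis, fell by 0.34 without overlap of the groups. Ube2c, the ubiquitin-conjugating enzyme of the APC/C, was the highest of the 4 per length at 442.1 ± 38.1 CPM per kilobase and was not called: it had 364.8, 430.3 and 478.8 CPM in Control gRNA and 384.3, 402.8 and 437.4 CPM in Tardbp gRNA cells (log2 fold change -0.07 ± 0.049, edgeR adjusted p = 0.296), so that the Tardbp gRNA values lay inside the Control gRNA range.

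**Figure D2:**
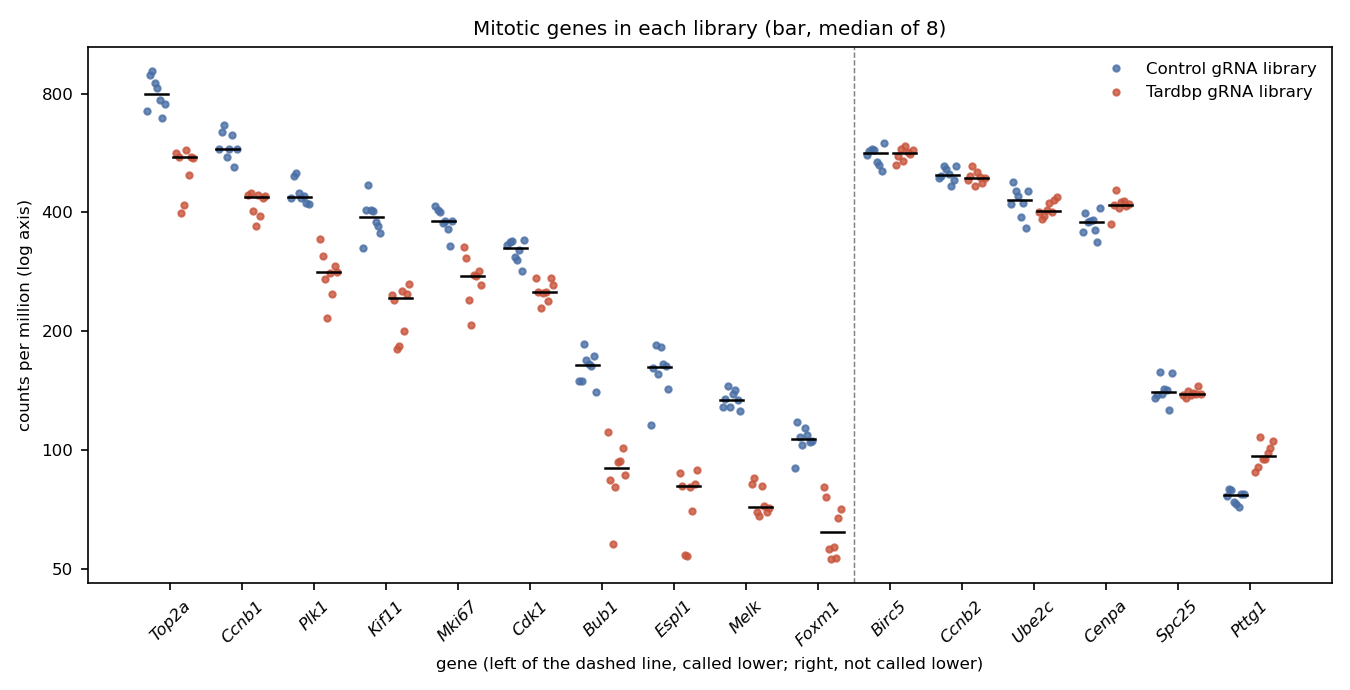
CPM of 16 members (x axis) in each of the 8 Control gRNA and 8 Tardbp gRNA libraries on a log axis, with a bar at the median of each group. To the left of the dashed line are members called lower, whose groups do not overlap, and to its right members that were not called lower, of which Pttg1 alone has all Tardbp gRNA libraries above all Control gRNA libraries.

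Of the 10 centromere and kinetochore genes 6 fell, 1 rose and 3 were not called, and the median was -0.22. Cenpa, the histone H3 variant that marks the centromere, was the highest of them per length (364.4 ± 22.9 CPM per kilobase in Control gRNA cells). It ran from 336.7 through 378.9 to 410.9 CPM in the Control gRNA group and from 373.1 through 418.6 to 455.6 CPM in the Tardbp gRNA group. The ranges overlapped while the test placed it higher, at a log2 fold change of 0.15 ± 0.043 (edgeR adjusted p = 0.00709). After each library's trend with transcript length was removed, Cenpa was at 0.02 and was not called (edgeR adjusted p = 0.673), nor was it with the length and GC trends removed (0.06, edgeR adjusted p = 0.289). The largest fall was in Cenpe, the long kinesin that carries chromosomes along microtubules, at 186.2, 214.2 and 230.9 CPM against 124.7, 162.9 and 172.0 CPM. That difference of -0.43 ± 0.065 (edgeR adjusted p = 2.55e-05) left no overlap. Knl1, the scaffold on which Bub1 and Bub3 assemble, fell by 0.34, and Cenpf, a large microtubule-binding protein of the outer kinetochore, by 0.24. The inner kinetochore subunits Cenpk and Cenpm were not called. Cenpk had a median of 72.8 CPM in Control gRNA and 71.7 CPM in Tardbp gRNA libraries (edgeR adjusted p = 0.391), and Cenpm 65.7 and 62.7 CPM (edgeR adjusted p = 0.351). Their full ranges were 66.8 to 81.6 against 62.9 to 75.7 CPM for Cenpk and 57.5 to 72.6 against 56.2 to 66.7 CPM for Cenpm, with log2 fold changes of -0.05 ± 0.049 and -0.06 ± 0.050.

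The Ndc80 complex, the 4-subunit rod that grips the microtubule, changed unevenly. Ndc80 fell by 0.40 on the log2 scale, Nuf2 by 0.26 and Spc24 by 0.20. Spc25 was not called, with 126.4, 140.1 and 158.0 CPM in the Control gRNA libraries and 135.6, 138.5 and 145.2 CPM in the Tardbp gRNA libraries (log2 fold change -0.03 ± 0.043, edgeR adjusted p = 0.597). The Tardbp gRNA libraries sat in the middle of the Control gRNA range. Per kilobase of dominant transcript the subunits stood at 86.2 ± 6.61 (Ndc80), 83.4 ± 7.75 (Nuf2), 105.5 ± 5.98 (Spc24) and 105.1 ± 7.92 CPM (Spc25) in Control gRNA cells. In Tardbp gRNA cells the same levels were 65.3 ± 3.88, 69.8 ± 3.71, 91.5 ± 3.88 and 103.0 ± 2.15 CPM per kilobase. The order of the pairs was the same in both groups, with Spc24 and Spc25 above Ndc80 and Nuf2. Within each of those pairs the Control gRNA levels differed by less than their SD.

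**Figure D3:**
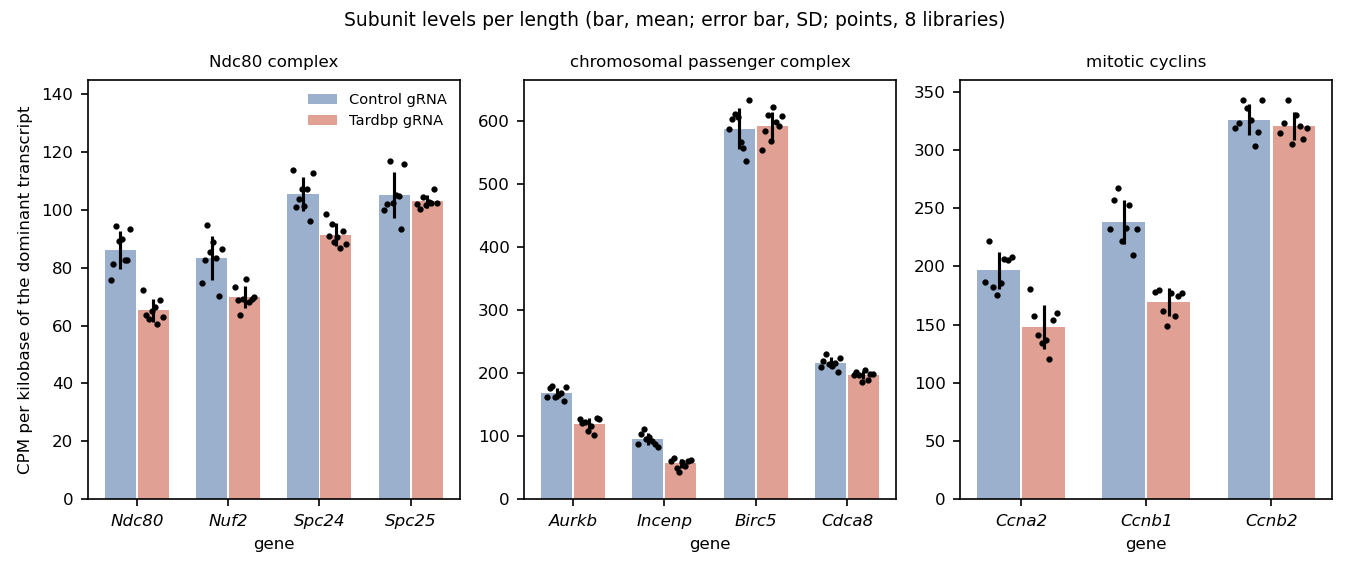
CPM per kilobase of the dominant transcript (y axis, from 0) for subunits of the Ndc80 complex, of the chromosomal passenger complex and for the mitotic cyclins; bars are means of 8 libraries, error bars SD and points libraries. Spc25, Birc5 and Ccnb2 have bars of like height in both groups, at 105.1 and 103.0, 588.5 and 593.0, and 326.3 and 320.6, while the other subunits are lower with the Tardbp guide.

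In the chromosomal passenger complex, which corrects wrong attachments and later sits at the spindle midzone, 3 of 4 fell (median -0.32). Incenp, the scaffold, changed most, from 287.1, 323.3 and 385.4 CPM to 150.8, 205.3 and 227.4 CPM. Its groups did not overlap and the log2 fold change was -0.75 ± 0.079 (edgeR adjusted p = 5.86e-07). Aurkb, the kinase of the complex, fell by 0.50 and Cdca8 (borealin) by 0.14. With plain library totals Cdca8 was at -0.07 and was not called (edgeR adjusted p = 0.0877). Birc5 (survivin), which targets the complex to chromosomes, had the highest level per length of all 53 members and was not called. Its values were 509.4, 564.8 and 600.6 CPM in Control gRNA and 525.8, 564.2 and 589.9 CPM in Tardbp gRNA libraries, with a log2 fold change of 0.01 ± 0.037 (edgeR adjusted p = 0.833). Its Tardbp gRNA libraries fell inside the Control gRNA range. The log2 ratio of Birc5 to Incenp counts ran from 0.59 to 1.06 in the Control gRNA and from 1.29 to 1.84 in the Tardbp gRNA libraries.

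All 8 spindle motors and microtubule proteins fell, and all 8 had groups without overlap (median -0.54). Kif11 (Eg5), the motor that pushes the spindle poles apart, showed the largest fall, from 325.0, 390.4 and 467.8 CPM to 179.8, 243.0 and 262.8 CPM (log2 fold change -0.78 ± 0.087, edgeR adjusted p = 1.10e-06). Nusap1, a microtubule bundling protein, showed the smallest, from 310.1, 359.3 and 379.5 CPM to 262.7, 280.5 and 297.9 CPM (log2 fold change -0.34 ± 0.047, edgeR adjusted p = 1.31e-05). The highest per length was Aurka, the kinase of centrosomes and spindle poles. It had 225.0, 250.4 and 273.0 CPM with the control guide and 155.2, 182.0 and 192.8 CPM with the Tardbp guide, a fall of 0.49 ± 0.047 (edgeR adjusted p = 2.21e-07). Tpx2, the activator of Aurka, fell by 0.56, the chromokinesin Kif4 by 0.70, the depolymerising kinesin Kif2c by 0.53, the hyaluronan-mediated motility receptor Hmmr by 0.52 and Gtse1 by 0.56.

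Cytokinesis, the division of the cytoplasm, gave the same picture in 5 of 5 genes, again with no overlap between groups in any (median -0.60). Anln (anillin), the organiser of the contractile ring, changed most, from 54.5, 63.3 and 79.7 CPM in the Control gRNA to 30.1, 38.7 and 45.04 CPM in the Tardbp gRNA libraries (log2 fold change -0.78 ± 0.087, edgeR adjusted p = 1.11e-06). Kif20a (MKLP2), which carries the passenger complex to the midzone, had both the highest level per length and the smallest change: 321.2, 380.0 and 421.3 CPM against 229.1, 253.6 and 271.6 CPM, a log2 fold change of -0.57 ± 0.051 (edgeR adjusted p = 1.34e-07). Ect2, the exchange factor that switches on RhoA at the furrow, fell by 0.73, Kif23 (MKLP1) by 0.60 and the midzone bundler Prc1 by 0.59. The library kit does not mark strand, and 34.6% of the dominant transcript of Kif20a overlaps exons of Cdc23 on the other strand and 26.7% of that of Prc1 exons of Rccd1, so their reads cannot be told apart in those stretches. Smaller such overlaps were in Ncapg (20.8%), Ccna2 and Cenpk (17.2% each), Kif4 (16.7%) and Zwilch (8.59%).

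Chromosome structure genes fell in 6 of 6 cases (median -0.56). Top2a, the topoisomerase that untangles sister chromatids, had the highest level per length of the 6. Its CPM of 693.6, 798.1 and 910.4 in the Control gRNA libraries went to 399.3, 551.0 and 574.6 in the Tardbp gRNA libraries, with no overlap and a log2 fold change of -0.64 ± 0.080 (edgeR adjusted p = 3.28e-06). Mki67, the Ki-67 protein that coats mitotic chromosomes and is used as a label of cycling cells, had 328.9, 379.5 and 414.0 CPM in the former and 207.7, 276.1 and 326.2 CPM in the latter. The highest Tardbp gRNA library lay just under the lowest Control gRNA library, at a fall of 0.48 ± 0.074 (edgeR adjusted p = 3.20e-05). The condensin subunit Ncapg changed most, from 277.2, 294.5 and 331.2 CPM to 146.0, 178.7 and 206.9 CPM (log2 fold change -0.72 ± 0.062, edgeR adjusted p = 9.24e-08). Ncapd2 fell by 0.68, while the ATPases that condensin I and II share fell less, Smc2 by 0.26 and Smc4 by 0.09. Smc4 ran from 403.6 through 432.5 to 463.4 CPM in Control gRNA and from 387.6 through 410.1 to 439.3 CPM in Tardbp gRNA libraries, with overlap and an edgeR adjusted p of 0.0473 (SE 0.038). Its call did not hold in 15 of 29 alternative fits, where the edgeR adjusted p ran from 0.0517 to 0.611. These were the fits with plain library totals, a stricter or no filter on low counts, the replicate number, the number set, RNA concentration or the sex letter as a term, either number set alone, the length or the length and GC trends removed, and those without any one of Control gRNA 2 and 3 and Tardbp gRNA 2 and 3.

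The last 4 members are the Polo-like kinases Plk1 and Plk4, the kinase Melk and the transcription factor Foxm1, which binds MuvB at CHR promoters. All 4 fell without overlap between groups, and the median of -0.70 was the lowest of the 9 role groups. Plk1, which acts from mitotic entry to cytokinesis, had 419.3, 436.5 and 503.2 CPM with the control guide and 215.8, 282.0 and 342.7 CPM with the Tardbp guide (log2 fold change -0.68 ± 0.073, edgeR adjusted p = 7.27e-07). Melk went from 125.2, 134.0 and 145.2 CPM to 68.2, 71.6 and 85.0 CPM, a log2 fold change of -0.85 ± 0.054 and the smallest adjusted p among the members (edgeR adjusted p = 6.74e-09). Foxm1 had 89.8, 106.7 and 117.4 CPM in Control gRNA cells. In Tardbp gRNA cells it had 52.9, 61.9 and 80.4 CPM, and it fell by 0.73 ± 0.088 on the log2 scale (edgeR adjusted p = 2.44e-06). Plk4, which starts the copying of centrioles, changed least, from 152.8, 159.3 and 178.3 CPM to 99.2, 114.3 and 125.3 CPM (log2 fold change -0.52 ± 0.052, edgeR adjusted p = 3.30e-07).

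Across libraries the members were lower in each of the 8 Tardbp gRNA libraries. The median over the 53 genes of log2 CPM minus the gene's Control gRNA mean was between -0.09 and 0.14 in the Control gRNA libraries and between -0.68 (library 4) and -0.31 (library 1) in the Tardbp gRNA libraries. In each Tardbp gRNA library between 38 and 45 of the 53 members lay under their whole Control gRNA range. That count was not made over all genes. In 10.3% of all genes tested, all 8 Tardbp gRNA libraries lay under the Control gRNA range. The members also moved together within the groups. After the group means were taken out, the median Pearson correlation over the 1378 pairs of members across 16 libraries was 0.52, and 87.7% of pairs were above 0. These libraries share their depth and scaling, so the value is a description. Tpx2 was most like the other members by its mean correlation with them (0.61), followed by Prc1 (0.61) and Kif2c (0.59), and its closest single neighbour was Anln (0.95). At the other end Cenpk (-0.22), Pttg1 (-0.10), Cenpm (-0.01), Cenpa (0.05) and Spc24 (0.14) followed the other members least.

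**Figure D4:**
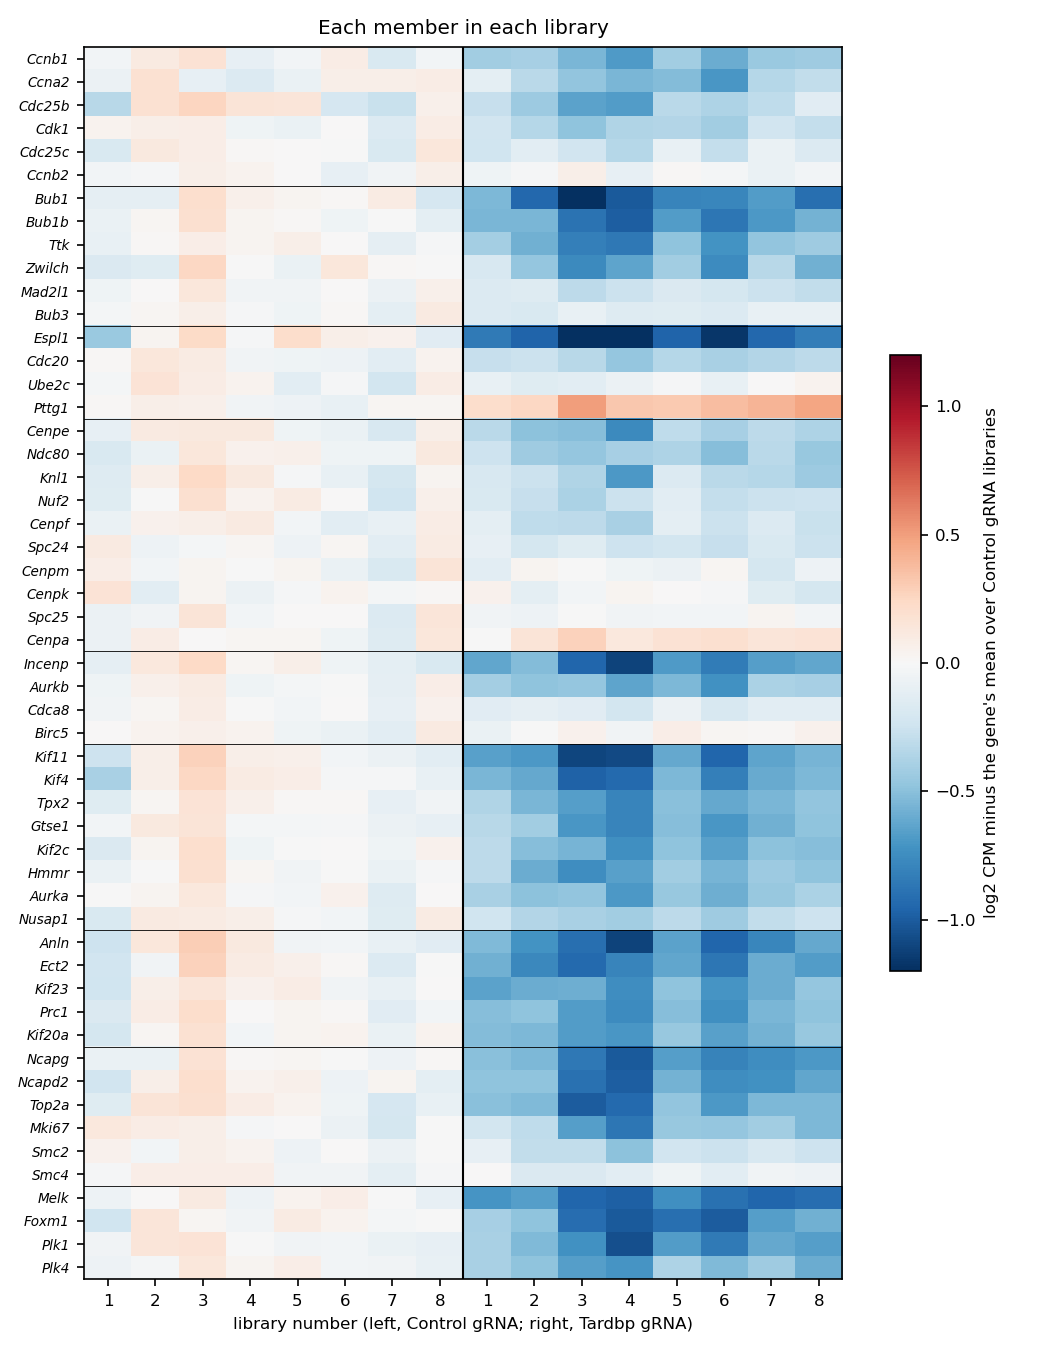
Log2 CPM of each member (rows, by role) in each library (columns, Control gRNA 1 to 8 and then Tardbp gRNA 1 to 8) minus the gene's mean over the Control gRNA libraries. The right side is blue in nearly all rows, deepest in Tardbp gRNA libraries 3, 4 and 6, and Pttg1 and Cenpa are the rows that turn red.

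The change of a member went with the length of its transcript. The dominant transcript of a gene was the one with the highest mean count per base over all libraries. In the 45 members called lower it had 1366 to 11130 bases with a median of 3421, and in the 8 others 741 to 1531 bases. Every one of the 38 members over 2000 bases was called lower (median log2 fold change -0.56), against 7 of the 15 shorter members (median -0.07). All genes tested showed a trend of the same sign. Among 7231 genes of up to 2000 bases the median was 0.15 and 12.5% were called lower, and among 9203 longer genes it was -0.06 and 32.2%. Across genes the Pearson correlation of log2 fold change with log2 length was -0.65 over the 53 members (Spearman rho -0.60) and -0.20 over 16434 genes, which are not independent replicates. The GC share of the transcript showed no such relation among the members (r = 0.003).

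A fit chosen after the data were seen took out each library's own trend of log2 CPM with transcript length. It called 50 members lower and 1 higher with a median of -0.41, where 23.7% of all genes tested were called lower and 22.4% higher. Birc5 (-0.13), Ccnb2 (-0.11), Ube2c (-0.20), Cenpk (-0.15), Cenpm (-0.17) and Spc25 (-0.13) were then called lower (edgeR adjusted p between 0.00356 and 0.0167). Pttg1 stayed higher at 0.19 (edgeR adjusted p = 0.00182), while Cenpa at 0.02 and Smc4 at 0.04 were not called. Espl1 and Melk were still at -0.95 and -0.78. The correlation of change with length over the 53 members was -0.44 in this fit. The source of the length trend was not tested.

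**Figure D5:**
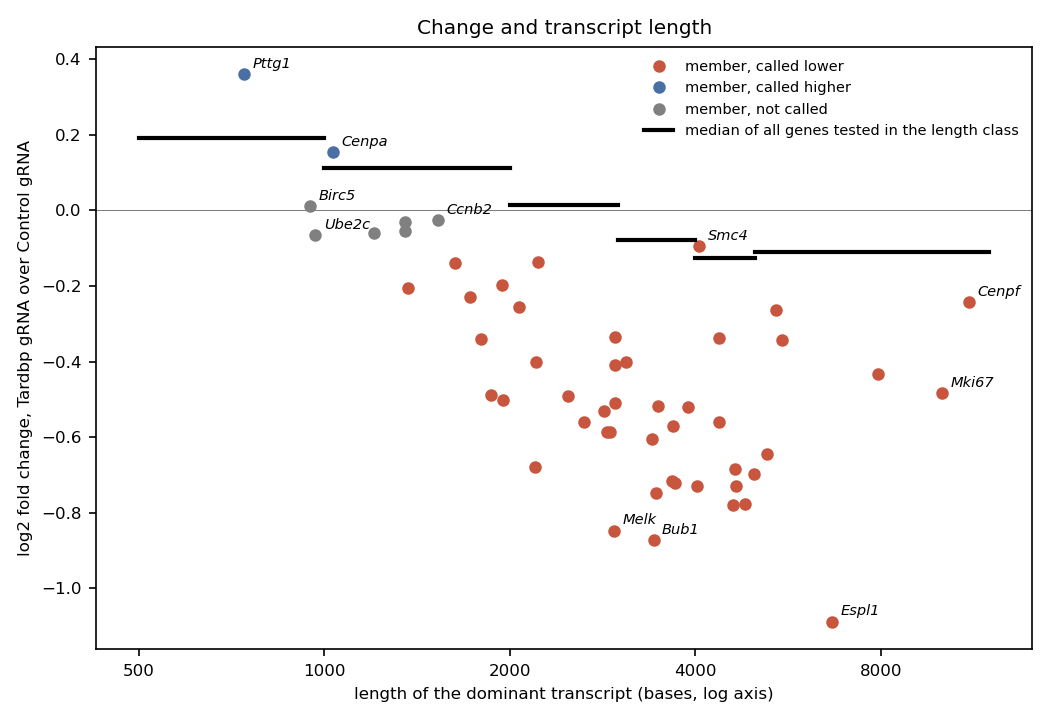
Log2 fold change (y axis) of the 53 members against the length of the dominant transcript (x axis, log scale), with black lines at the median of all genes tested in 6 length classes. Members that were not called lower all lie at 1531 bases or less, and beyond 2000 bases all members are called lower, mostly well under the line of all genes.

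Transcript counts of the same libraries gave the same direction. Of 228 transcripts of members tested, 59 from 42 genes were called lower and 2 higher, against 8.14% lower and 8.50% higher among 40897 transcripts. The dominant transcript was called lower in 40 of 53 members and not called in 13. The 2 transcripts called higher were minor forms of genes that had not fallen. Pttg1-204, of 1674 bases, went from 9.34 ± 2.69 to 18.01 ± 5.10 CPM (mean ± SD, n = 8, log2 fold change 0.95 ± 0.206, edgeR adjusted p = 0.00426), and Spc25-203 from 3.94 ± 0.861 to 5.48 ± 0.988 CPM (log2 fold change 0.47 ± 0.157, edgeR adjusted p = 0.0493). The share that a transcript held of its gene was called different, at a difference over 0.1 and a limma adjusted p under 0.05, for 0 of 222 member transcripts, against 0.63% of 32701. At an unadjusted p under 0.05 and any size there were 24, and at an adjusted p under 0.05 and any size 9, with differences of up to 0.015. Both main coding forms of Espl1 fell, Espl1-201 with a share of 0.74 in both groups and Espl1-202 with a share of 0.26 and 0.25. The dominant forms of Cenpa (Cenpa-202), Cenpk (Cenpk-205) and Smc4 (Smc4-207) in the deposited counts are classed by the annotation as targets of nonsense-mediated decay, and that of Incenp (Incenp-209) as a retained intron.

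Splicing nodes, the pieces of a gene that the study's Whippet run scored for the share of transcripts that include them (Psi, 1 value per group), were listed for 52 members. The Psi of the 2 groups differed by more than 0.1 at 14 of 869 member nodes (1.61%), against 4.70% of 125520 nodes in the table, and without replicate values this carries no test. The study's filters on probability and on total reads were applied to neither share. Thinly covered nodes of other genes could thus be counted, and the 2 shares may not be alike. Of the 14, 7 were alternative starts, 6 alternative ends and 1 a core exon. The core exon belongs to Mki67, is 960 bases long (chr7:135707361-135708320, minus strand, mm10) and had a Psi of 0.806 with the control guide and 0.7 with the Tardbp guide. The largest difference was at the starts of Pttg1, where use of the downstream start piece (chr11:43425682-43425963, minus strand) went from 0.520 to 0.802 and that of the 18-base piece beside it from 0.485 to 0.199. Spc25 moved between neighbouring starts by 0.17, from the piece nearer the gene body (0.396 to 0.227) to the outer one (0.603 to 0.773). Ttk used its last 3 bases less, 0.465 against 0.245, Smc4 its last 5 bases less, 0.188 against 0.0565, and Cdc25b its last 2 bases more, 0.703 against 0.844. The other nodes were starts of Nuf2 and Ect2 with differences of 0.12.

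In each of the following lists of further genes of the same process, more genes were called lower than higher. Among all genes tested 23.3% were called lower and 23.5% higher. Of 27 other kinetochore and centromere subunits 22 fell and 1 rose (median -0.32), from Kntc1 at -1.13, a partner of Zwilch in the RZZ complex, to Cenpq at -0.13, with Mad2l2, a protein of DNA repair and APC/C inhibition, at 0.18 the one that rose. All 4 other condensin subunits fell (median -0.63), from Ncapg2 at -0.999 to Ncaph2 at -0.14. Among 33 other spindle and cytokinesis genes 27 fell and 6 were not called (median -0.45). Arhgap11a, a RhoA-directed protein, fell most of these (-0.75) and Cdca3 least (-0.11). The 18 APC/C subunits and regulators were divided, with 12 lower and 5 higher (median -0.35). The largest fall was in the scaffold Anapc1 (-1.13) and the largest rise in the small subunit Anapc13 (0.44), and the smallest called change was that of Anapc16 (0.12). Cohesin and its regulators had 10 lower and 2 higher of 16 (median -0.25), from Pds5b at -0.63 through Smc3 at -0.16 to the cohesin loader Nipbl at 0.37. Of 20 DREAM, MuvB and E2F regulators 11 fell and 2 rose (median -0.25). E2f8 fell most (-0.84), Mybl2, the B-Myb partner of MuvB, fell by 0.74, and E2f4 showed the smallest called change (-0.22).

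Of 15 brakes on the cell cycle, not all of them acting on mitotic entry, 3 were lower and 5 higher (33.3%). Their median was 0.21. Among all genes 23.3% were lower and 23.5% higher, and the difference of this list from the others was not tested. Btg1, an antiproliferative cofactor of mRNA deadenylation, rose by 1.68 ± 0.154 (edgeR adjusted p = 1.51e-07) and Gadd45a, a stress protein that restrains Cdk1, by 1.53 ± 0.227 (edgeR adjusted p = 2.33e-05). Gadd45a was at a low level, with medians of 1.06 CPM in the Control gRNA and 3.04 CPM in the Tardbp gRNA libraries. The same medians of Btg1 were 54.7 and 167.2 CPM. Gadd45b, Gadd45g and Btg2 rose by 0.65, 0.48 and 0.39, and Chek1, Chek2 and Pkmyt1 fell by 0.39, 0.38 and 0.28. Wee1 (-0.18, edgeR adjusted p = 0.149) was not called, nor were the Cdk inhibitors Cdkn1a (0.21) and Cdkn1b (0.16).

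The DNA replication machinery, which acts before mitosis, fell as well. Of its 44 genes 43 were called lower, Rpa3 (0.04) was not called, and the median was -0.48 beside -0.49 for the mitotic genes. After the length trend was removed the medians were -0.50 and -0.41. Its largest fall was in Pole (-1.04) and its smallest in Gins4 (-0.13). Library by library its median lay between -0.67 and -0.33 in the Tardbp gRNA group. The difference between the replication and the mitotic genes was not tested.

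Some other readings moved with the guide as well. The marker counts below stand beside 23.5% of all genes tested called higher and 23.3% called lower. Whether the share of markers called in a list differed from that of all genes was not tested. All 7 CD8 T cell markers rose, from 0.44 for Cd3e to 0.75 for Cd3g, and their summed level went from 3660 to 4560 CPM over the Control gRNA libraries to 5530 to 7110 CPM over the Tardbp gRNA libraries. Of 7 resting T cell genes 3 rose and 2 fell. Of 6 red cell precursor markers 3 globins rose, with a summed level of 0.294 to 13.3 against 7.64 to 141 CPM, while Klf1 and Slc4a1 were under 1 CPM in every library. Of 8 myeloid markers 3 rose (summed 25.1 to 46.5 against 31.8 to 92.1 CPM), and of 3 NK markers Eomes rose (summed CPM of the 3 from 12.6 to 63.4 against 36.9 to 101). Of 6 B cell markers Ighm rose (summed 374 to 460 against 540 to 707 CPM) and Pax5 was under 1 CPM throughout. The 4 CD4 T cell markers had edgeR adjusted p values of 0.244 to 0.96 and summed levels of 4.39 to 20.7 and 6.15 to 15.6 CPM. The part of these readings, and of the RNA concentration, in the lower mitotic levels was not tested. When log2 RNA concentration entered the fit, 42 members were called lower and 1 higher, at a median of -0.62, where 10.1% of all genes were lower and 6.07% higher. Ccna2, Spc24, Smc2, Smc4 and Cenpa were not called in that fit (edgeR adjusted p between 0.0598 and 0.868).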

How the data were processed

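RNA of 8 Control gRNA and 8 Tardbp gRNA samples was made into libraries with a SMART-Seq v4 and Nextera XT kit without strand marking, and read as pairs of 100 bases. Per the submitters' processing notes the authors used HISAT2 2.1.0, SAMtools 1.9, StringTie 2.1.0, DESeq2 1.30.1 and R 4.0.5 with mm10. The deposited estimated counts per gene and per transcript are whole numbers that count bases of coverage over the read length, so a read pair adds about 2, and they were used as deposited, with identifiers named from GENCODE M21. Psi is a fraction deposited by the authors, 1 value per group, and which of its columns is which group was taken from the file and the study's text. The deposited probability and difference of Psi belong to the authors' own comparison and were not used, so the probability threshold that had been planned was dropped. The deposited read-pair counts per library and the letters for sex come from the facility's and the authors' annotation. In both count tables, 10 columns of other samples were not used, and 26248 lines with a bare number for a name and 97 other lines were left out, holding 0.0836 to 0.132% of the counts.

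Genes were tested with edgeR 4.0.16 (R 4.3.3), quasi-likelihood, TMM, filterByExpr by group (minimum count 10, total 15, proportion 0.7), two-sided, Benjamini-Hochberg over all genes, called under 0.05, no covariate. Transcripts were tested likewise and transcript shares with limma 3.58.1. CPM come from TMM-scaled totals, and counting error is small at totals of 56016533 to 94801105. Library measures were compared with an exact permutation test (scipy 1.17.1), which cannot go under 0.000155. Scripts were tested on simulated data. The smallest and largest change, the highest level per length and every member not called or against the majority were named in each of 9 role groups, with Mki67, Top2a, Cdk1, Ccnb1, Plk1 and Foxm1 in any case, and for other lists the largest and smallest called change, with further genes added for their role after their values were seen. The members, lists and alternatives were chosen with earlier results of these data known. The labels do not say that samples were separate animals, but the study's text names 8 recipients. By the methods, cells were split by group and electroporated before transfer. How many donor pools or electroporations lay behind the libraries of a group is not given. The p values measure the spread between libraries and may not cover that between separate edits. Alternatives were other scalings and filters, DESeq2 1.42.0, subsets of libraries, covariates, blocks and, chosen after the data were seen, lowess trends on length and GC. 1 of the cell type markers is not reported here.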

Additional observations from a re-analysis of the deposited data

Results flagged for a closer look

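In 114 groups of 8 values (53 members and 4 library measures in 2 groups) a library stood apart from the other 7 in 3, where chance alone gives about 1 in 20 groups. All 3 are Control gRNA library 3, which was the highest of its group for Bub1b (452.0 CPM, the others 366.0 to 404.5), for Hmmr (281.3 CPM, the others 232.8 to 250.4) and for Ncapg (331.2 CPM, the others 277.2 to 298.5). The cause was not tested. Without this library 44 members were called lower and 2 higher, with a median log2 fold change of -0.47.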

How the results depend on the processing

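Of the 47 called members 46 kept their direction in all 30 fits, and 29 of the 45 were called lower in every one, or 38 when numbers 1 to 3 alone were set aside. In that small set 29 members were called lower and 0 higher, of 1696 genes called (7783 in all libraries), although 51 of 53 members had a negative change. With log2 RNA concentration as a covariate 1 member was called higher, the median was -0.62 and 2697 genes were called. With the length trend, and with the length and GC trends, removed, 1 member was called higher. Leaving out 1 library at a time gave 44 to 45 members lower, 2 to 2 higher, medians of -0.53 to -0.47 and 7265 to 7734 genes. A Psi difference over 0.2 left 4 nodes, in Pttg1 and Ttk, and the planned probability over 0.95 was not run. Signs changed for members near 0. Plain library totals moved the median of all genes from 0.0464 to 0.117, with 3135 genes lower and 4881 higher in place of 3877 and 3906, and gave 41 members lower and 2 higher, with Ccnb2 at 0.0449, Ube2c at 0.00473, Cenpk at 0.0176, Cenpm at 0.0111 and Spc25 at 0.0406. Ube2c was at 0.0134 in numbers 4 to 8. Birc5 was at -0.0747 in numbers 1 to 3, -0.105 with RNA concentration, -0.128 with the length trend and -0.111 with length and GC trends removed, and from -0.0273 to 0.019 with 1 library left out, under 0 without any one of 10. Smc4 was at 0.0391 with the length trend removed. Apart from the plain totals and the subsets above, the cause of these changes was not tested.

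The library numbers did not pair the samples at the required correlation of over 0.1 in every pair: deviations of same-numbered libraries correlated at 0.160 and 0.105 for numbers 1 and 2 and between -0.0048 and 0.055 for the rest. The replicate block gave 44 members lower, 2 higher, 7645 genes, 58 member transcripts and 0 shares, and no member but Smc4 (adjusted p = 0.117) changed its call. With the number set (1 to 3 or 4 to 8) as a block 44 members were lower and 2 higher, of 7930 genes called.

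Depth was not limiting for members, whose lowest library value was 30.1 CPM, and the transcript-level counts divide reads that forms share.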
